A study of Mus musculus with 28 samples.

Results

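The regions described here are stretches of N6-methyladenosine (m6A) enrichment on the DNA strand opposite an annotated gene. The peaks of all 14 immunoprecipitation (IP) libraries were joined into 33937 regions wherever they shared 1 bp or more of the same strand. A region was taken as antisense when its midpoint lay in no gene of its own strand, more than 200 nt from every stop codon of that strand, and inside a gene of the opposite strand in GENCODE release M21 on the mm10 genome. This held for 1587 regions, or 4.68% of all regions. No peak value entered this choice, so the strength, recurrence and sequence of the regions were free to be compared with those of the other regions, which were 3130 outside genes on both strands, 5392 in introns of their own strand, 17667 in exons of their own strand and 6161 within 200 nt of a stop codon. Each antisense region is named below by the gene it lies opposite, which is not the gene that made the RNA.

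Hybrid mice of C57BL/6J (C57) and PWK/PhJ (PWK) parents were studied at birth (P0) and at 7 days of age (P7), and cerebellum and cerebrum were taken. In the initial cross (F1i) the mother was PWK and the father C57, and in the reciprocal cross (F1r) the mother was C57 and the father PWK, so every library came from a mouse with a C57 and a PWK allele. There were 2 P0 cerebellum libraries, both labelled male, 4 P7 cerebellum, 4 P0 cerebrum and 4 P7 cerebrum libraries, and each F1i library had an F1r partner of the same tissue, age and labelled sex, which gave 7 pairs. The labels do not say whether a library held RNA of 1 animal or of several.

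m6A is the commonest internal mark of messenger RNA. A methyltransferase complex writes it within the DRACH consensus, of which GGAC is the most frequent form, and most of it is found in long internal exons and around stop codons. Antisense RNA can come from a long non-coding gene of its own, from a promoter that fires in both directions, or from a transcript that continues past the end of a neighbouring gene. In the brain, antisense RNAs such as those of the Gnas and Ube3a loci take part in genomic imprinting, the silencing of a gene copy according to the parent it came from.

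The sequences of 11 regions are given to show what such regions look like on their own strand, 50 nt to either side of the strongest summit. The first 4 regions were called in every library, the next 3 in cerebrum libraries alone, the next 3 in cerebellum libraries alone, and the last in F1i libraries alone. Coordinates are those of mm10, the sequences are the C57 reference of RefSeq (GRCm38.p6) written 5′ to 3′, and capitals mark GGAC on the printed strand.
Slc24a2 (chr4:87103717-87103817, plus strand): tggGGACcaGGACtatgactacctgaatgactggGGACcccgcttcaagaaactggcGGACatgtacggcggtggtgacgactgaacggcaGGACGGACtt
Obsl1 (chr1:75505760-75505860, plus strand): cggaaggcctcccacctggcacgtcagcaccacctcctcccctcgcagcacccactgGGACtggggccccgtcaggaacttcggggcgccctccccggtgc
Gm13780 (chr2:92059435-92059535, plus strand): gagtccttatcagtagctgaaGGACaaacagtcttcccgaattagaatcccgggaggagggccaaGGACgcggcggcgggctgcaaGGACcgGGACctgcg
D030068K23Rik (chr8:109248901-109249001, minus strand): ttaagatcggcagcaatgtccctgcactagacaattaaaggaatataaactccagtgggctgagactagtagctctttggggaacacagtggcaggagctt
Spata6 (chr4:111807184-111807284, minus strand): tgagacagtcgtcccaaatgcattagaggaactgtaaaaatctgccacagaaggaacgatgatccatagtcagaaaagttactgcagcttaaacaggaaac
Fam3b (chr16:97491200-97491300, plus strand): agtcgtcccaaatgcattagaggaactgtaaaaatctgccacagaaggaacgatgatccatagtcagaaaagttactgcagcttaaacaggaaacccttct
Sfi1 (chr11:3132670-3132770, plus strand): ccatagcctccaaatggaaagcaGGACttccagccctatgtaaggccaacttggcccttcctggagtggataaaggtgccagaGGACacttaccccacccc
Fam135a (chr1:24072406-24072506, plus strand): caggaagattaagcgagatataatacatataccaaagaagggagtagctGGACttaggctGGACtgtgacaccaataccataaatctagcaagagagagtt
1700020L24Rik (chr11:83440432-83440532, minus strand): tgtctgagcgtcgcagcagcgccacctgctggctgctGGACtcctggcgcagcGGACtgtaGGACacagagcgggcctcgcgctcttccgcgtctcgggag
Zkscan17 (chr11:59517954-59518054, plus strand): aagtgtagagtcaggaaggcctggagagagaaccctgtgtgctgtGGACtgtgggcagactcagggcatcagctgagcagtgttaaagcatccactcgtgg
Gnas (chr2:174327024-174327124, minus strand): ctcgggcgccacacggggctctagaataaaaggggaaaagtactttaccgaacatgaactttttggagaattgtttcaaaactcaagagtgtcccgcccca
GGAC occurs in 7 of these windows and not in those of D030068K23Rik, Spata6, Fam3b and Gnas. Of all 1587 antisense windows of this length, 60.2% held GGAC on their own strand, beside 59.5% of the windows of all 33937 regions. The windows opposite Spata6 and Fam3b are near-identical, with a shared run of 146 nt, so their peaks may share reads.

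A library held between 267 and 820 antisense regions. The P0 cerebrum libraries had the most, with 712 and 820 in the male and female F1i libraries and 741 and 692 in the male and female F1r libraries. The P7 cerebrum libraries held 352, 306, 419 and 409 in the same order. In cerebellum the P0 F1i and F1r libraries held 359 and 419, and the P7 libraries held 394, 278, 351 and 267 in the order given for cerebrum. The P0 cerebrum libraries thus stood above all the others without overlap, and the other 3 groups overlapped. Regions of all classes together separated in the same way, with 21895 to 24038 in P0 cerebrum and 13768 to 18106 in the other libraries. As a share of all regions, antisense regions made up 3.16% to 3.41% in P0 cerebrum and 1.86% to 2.59% in the others.

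**Figure D1:**
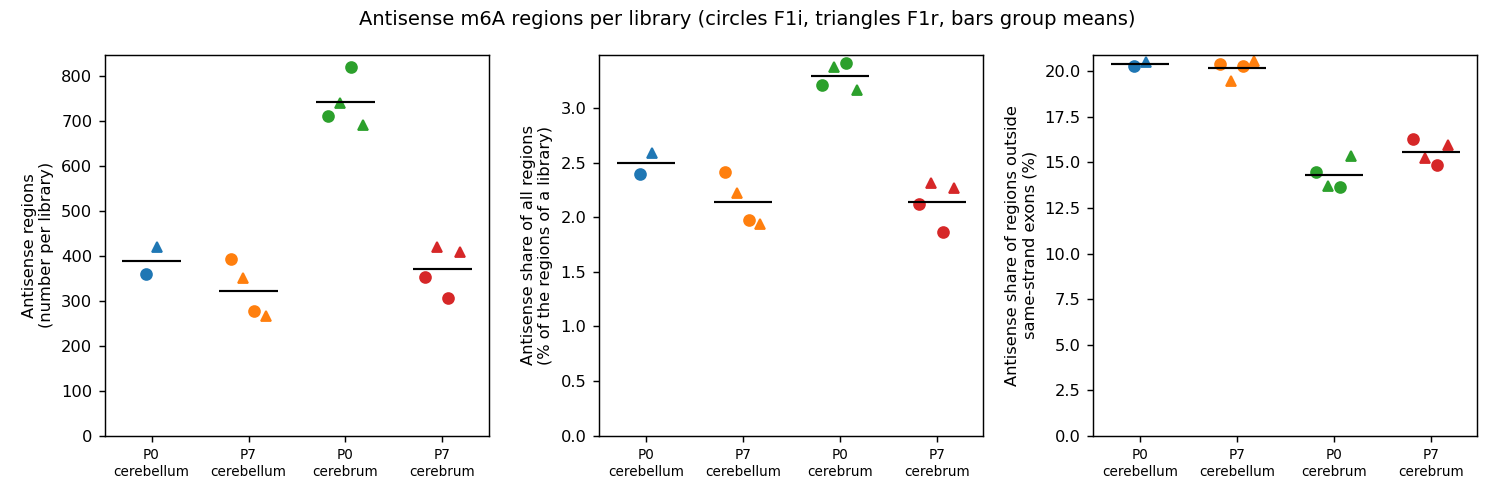
Antisense regions per library (left, number), their share of all regions of the library (middle, %) and their share of the regions outside exons of their own strand (right, %), by tissue and age, with F1i libraries as circles, F1r libraries as triangles and group means as bars. P0 cerebrum libraries lie at 692 to 820 regions, above all other libraries, and the cerebellum libraries lie above the cerebrum libraries in the right panel.

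Libraries differed in depth and in total regions, which bears on such counts. Depth relative to the mean of all libraries, worked out from the peak values, ran from 0.560 to 1.57, and the number of regions per library from 13768 to 24038. Cerebellum libraries were processed in a batch of their own and so were cerebrum libraries, and the part of the batch and that of the tissue cannot be told apart. Of 10 cerebellum marker genes, En2, Pcp2, Cbln3, Atoh1 and Pax2 carried a region in 0 of 8 cerebrum libraries, Gabra6 in none of either tissue, and Cbln1 and Zic1 in all 14 libraries. All 10 cerebrum marker genes carried a region in 8 of 8 cerebrum libraries, and Emx1 in 0 of 6 cerebellum libraries. The sex labels of the 2 P7 cerebrum F1r libraries are in doubt: the one labelled male had 7 regions in Xist, the RNA of the inactive X chromosome, and 0 in Y-linked genes, and the one labelled female had 3 and 1. Results that rest on these libraries are given without them where the outcome changed.

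Antisense regions were less recurrent than those in exons. A median antisense region was called in 3 of 14 libraries, 532 (33.5%) in a single library and 80 (5.04%) in all 14. Of the regions outside genes 7.80% were called in all 14 libraries, of those in introns 2.56% and of those in exons 33.3%. The Jaccard index, the number of antisense regions that a pair of libraries shared over the number that either held, had a median of 0.552 within groups, 0.343 between ages of a tissue and 0.304 between tissues. For all regions these medians were 0.770, 0.679 and 0.583. The median width was 150 nt for antisense regions, 156 nt outside genes, 132 nt in introns and 216 nt for all regions.

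**Figure D2:**
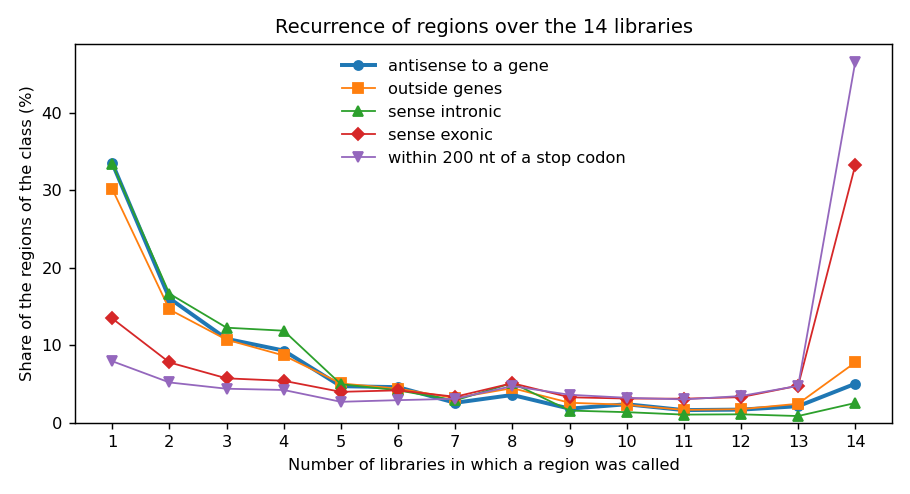
Share of the regions of each class (%, vertical axis) by the number of libraries in which a region was called (horizontal axis, 1 to 14). The antisense regions follow the regions outside genes and in introns, with 33.5% in 1 library and 5.04% in all 14, while 33.3% of exonic regions and 46.6% of stop codon regions were in all 14.

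Antisense peaks were weak among the peaks of their library. Strength was taken as the percentile of a peak's −log10 q (the significance given by the peak caller) inside the list of its library, where 100 is the strongest. The mean percentile of antisense peaks was between 28.6 and 34.3 in the 14 libraries, and that of all other peaks between 50.3 and 50.7. The mean difference was -19.3 percentile points and had the same sign in 14 of 14 libraries (two-sided exact permutation test by sign flips, p = 0.000122, the smallest it can give; adjusted p = 0.000275 over 9 tests). Peaks outside genes had mean percentiles of 32.0 to 37.2 and intronic peaks of 29.7 to 36.3, so antisense peaks were nearer to these classes than to all peaks. The median fold enrichment over local background was 7.26 ± 0.376 (SD, n = 6) for antisense and 8.49 ± 0.536 for other peaks in cerebellum, and 7.66 ± 0.528 (SD, n = 8) and 10.9 ± 0.421 in cerebrum.

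The m6A motif was centred on the antisense summits, on the strand of the peak and not on that of the annotated gene. The A of a GGAC was 25 nt or less from the summit in 50.4% to 58.3% of antisense peaks of the cerebellum libraries (median 55.5%) and in 41.3% to 46.7% of those of the cerebrum libraries (median 42.3%). In windows of the same length shifted by 300 nt to both sides it was found in 16.1% to 20.5%. Read on the gene's strand at the same summits, it was found in 9.27% to 13.8%. Over the 14 libraries the summit exceeded the shifted windows by 30.5 percentage points and the gene's strand by 36.1 points, both with the same sign in 14 of 14 libraries (two-sided exact permutation test by sign flips, p = 0.000122 each, adjusted p = 0.000275). The 2 tissues did not overlap in the summit share, and the same gap was seen in exons, where GGAC lay at 51.2% to 53.7% of cerebellum and 42.9% to 46.3% of cerebrum summits.

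**Figure D3:**
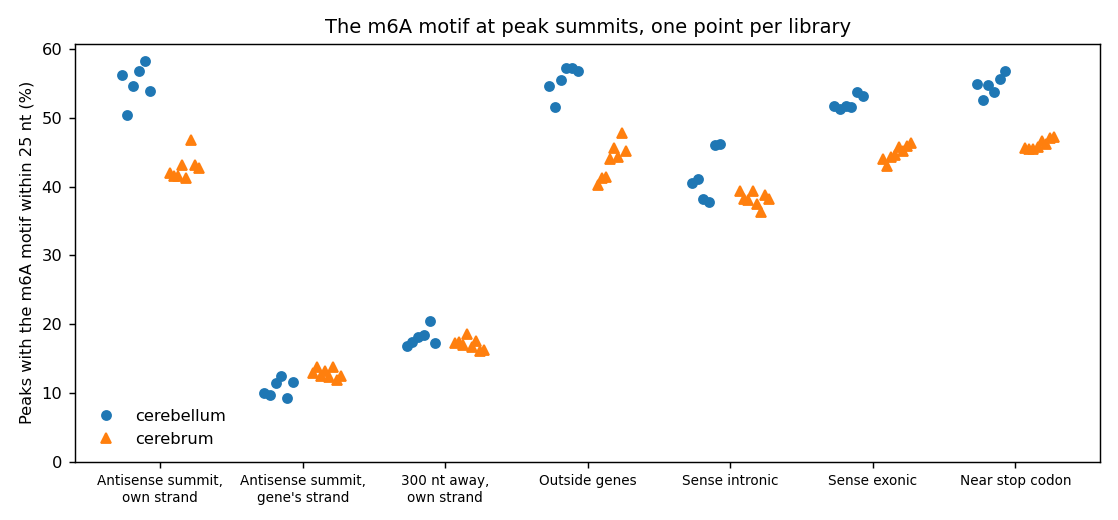
Share of peaks with GGAC within 25 nt (%, vertical axis), with a point per library, circles for cerebellum and triangles for cerebrum. Antisense summits read on their own strand lie at 41.3% to 58.3%, close to the 40.3% to 57.3% of summits outside genes, while the same summits read on the gene's strand lie at 9.27% to 13.8%.

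Antisense summits held the motif more often than intronic summits, while their difference from summits outside genes was within the spread between libraries. The latter was -0.759 points (two-sided exact permutation test by sign flips, p = 0.217, adjusted p = 0.279), and it went to +0.0419 points without the Trim12-Trim30 locus described below. With any DRACH motif in place of GGAC it was -1.34 points (p = 0.000366 in the same exact test). The difference from intronic peaks was 8.33 points, with p = 0.000122 (exact permutation test; adjusted p = 0.000275). Over all 6891 antisense peaks, the A of GGAC fell on a given position in 1.18% of peaks within 25 nt of the summit and in 0.381% at 200 to 300 nt from it. On the gene's strand these values were 0.262% and 0.375%.

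**Figure D4:**
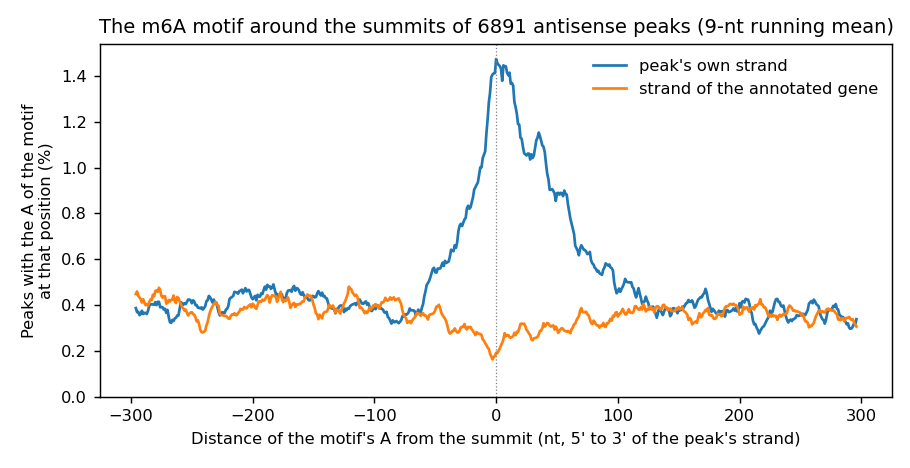
Share of the 6891 antisense peaks with the A of GGAC at each position (%, vertical axis, running mean) by distance from the summit (nt, horizontal axis), on the peak's own strand and on the strand of the annotated gene. On the own strand the share averages 1.18% within 25 nt of the summit and 0.381% at 200 to 300 nt, and on the gene's strand it is lowest near the summit.

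Recurrent antisense regions held the motif more often than regions seen once. Of the regions called in 1 library, 38.9% had GGAC within 25 nt of their strongest summit, compared with 44.7% in 2 to 4 libraries, 47.2% in 5 to 13 libraries and 55.0% of the 80 in all 14. The regions opposite an exon had it in 47.1% and those opposite an intron in 41.6%. These shares are over regions, not libraries, and are given as a description.

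Most antisense regions faced protein-coding genes. The opposite gene was protein-coding for 1380 of 1587 regions (87.0%) and a long intergenic RNA gene for 94. The regions lay opposite 954 different genes, of which 638 held a single one, and Gm20388 held 18. The midpoint faced an intron in 921 regions (58.0%), a UTR in 263, a coding exon in 247 and a non-coding exon in 156. It was within 2 kb of the start of the opposite gene in 388 regions (24.4%) and within 2 kb of its end in 324 (20.4%).

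On their own strand, 839 regions (52.9%) lay within 10 kb downstream of the end of an annotated gene, and for 620 of these that upstream gene was protein-coding. In 587 of the 839 the upstream gene carried an m6A region of its own. Within 10 kb upstream of a gene start on their strand lay 421 regions, some of them among the 839, and 535 of the 1587 regions met neither condition. Over libraries, the share within 10 kb downstream of a gene was 53.2% ± 5.23 for antisense regions and 53.5% ± 1.97 for regions outside genes (SD, n = 14). The difference of -0.262 points did not exceed the spread (exact sign-flip permutation test, two-sided p = 0.826, adjusted p = 0.826), and its sign changed with the distance chosen: it was -4.93 points at 5 kb (exact p = 0.00110) and +1.99 points at 50 kb (exact p = 0.0236).

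The annotation decides what counts as antisense. RefSeq, a separate annotation of the same genome, placed 307 of the 1587 regions (19.3%) inside a gene of their own strand, and 28 of the 80 regions called in all 14 libraries. Of the 3130 regions outside genes it placed 1045 (33.4%) inside such a gene. The body of 48 regions touched a gene of the same strand although the midpoint did not. A run of 31 nt was shared with another antisense region by 133 regions, so reads could have been placed at either. Runs shared with sequence outside the antisense regions were not looked for, so more regions may be placed with doubt. The strongest summit lay in soft-masked repeats in 17.5% of antisense regions, 31.4% of regions outside genes and 37.9% of intronic regions.

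A peak on the gene's own strand mirrored few antisense regions, though a larger share than in the other classes. In 77 regions (4.85%, 95% Wilson interval 3.90% to 6.02%) a peak of the opposite strand had its summit within 100 nt, against 0.373% to 0.560% in the other 4 classes, whose regions need not face a gene. Of the 77 regions, 74 faced an exon. The motif read on the gene's strand was found within 25 nt of the summit in 20.8% of mirrored regions and in 11.8% of the others. Read on the region's own strand it was found in 41.6% and 44.0%. Only the regions opposite Obsl1, A930004D18Rik and Emg1 were both mirrored and called in all 14 libraries, and these 3 were picked out after their values were seen.

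The strongest antisense regions present in every library are given first. The region opposite Gm14597 (chrX:53608623-53608988, plus strand) had the highest mean percentile of all that were called in 14 libraries, 98.9, and lay 373 nt past the end of Rtl8c, a retrotransposon-derived gene, which RefSeq extends over it. Its fold enrichment was 23.6, 20.6, 28.7, 20.9, 30.1 and 26.2 in the cerebellum libraries and ran from 45.1 to 77.0, with a median of 52.6, in the cerebrum libraries. The region opposite an intron of Slc24a2, a sodium, calcium and potassium exchanger of neurons (chr4:87103522-87103915, plus strand), had a mean percentile of 95.5. It lay 168.9 kb from the nearest upstream gene of GENCODE, while RefSeq places Gm34039 on the strand of the region. It shared no run of 31 nt with another antisense region, but matches elsewhere in the genome were not looked for. Its fold was 19.9 to 32.2 (median 23.0) in cerebellum and 28.8 to 56.1 (median 45.9) in cerebrum. The fold opposite Gm14597 did not overlap between tissues and that opposite Slc24a2 did, and fold values were higher in cerebrum for peaks at large. By percentile both regions overlapped, at 98.95 to 99.88 in cerebellum and 97.5 to 99.28 in cerebrum for Gm14597, and at 93.6 to 97.8 and 91.4 to 97.4 for Slc24a2.

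The region opposite the long intergenic RNA gene D030068K23Rik (chr8:109248752-109250273, minus strand) differed between ages in cerebrum. Its fold was 127.4, 130.8, 123.4 and 114.8 in the P0 and 65.5, 82.3, 73.5 and 76.6 in the P7 cerebrum libraries, and 31.8 to 64.0 in cerebellum. Its percentile was 98.3 to 98.5 at P0 and 92.1 to 93.4 at P7 in cerebrum, without overlap. RefSeq holds a gene on the strand of this region, 4922502B01Rik. The opposite order was seen for the region facing a non-coding exon of Gm13780 (chr2:92058686-92059991, plus strand), with percentiles of 79.6 to 83.5 at P0 and 89.6 to 92.5 at P7 in cerebrum. These are descriptions of regions chosen for their strength, and no test was made on single regions by age.

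Among the other regions called everywhere, the one opposite the first part of Obsl1, a cytoskeletal linker gene (chr1:75505654-75506759, plus strand), faced a coding exon 246 nt from the gene's start and was mirrored by a peak of the gene itself. Its fold was 11.2 to 23.0 in cerebellum and 36.7 to 53.9 in cerebrum, while its percentiles overlapped, at 78.8 to 90.5 and 88.9 to 93.2. The region opposite Nefm, which encodes a neurofilament subunit, had folds of 26.3 to 33.6 in cerebellum and 31.5 to 49.7 in cerebrum, which overlap. On its strand RefSeq places A230070E04Rik. The regions opposite Gm45133 and Fancl, a ubiquitin ligase gene of DNA repair, completed the 8 strongest, with mean percentiles of 81.7 and 81.6. RefSeq places U2af2 on the strand of the region opposite Gm45133.

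**Figure D5:**
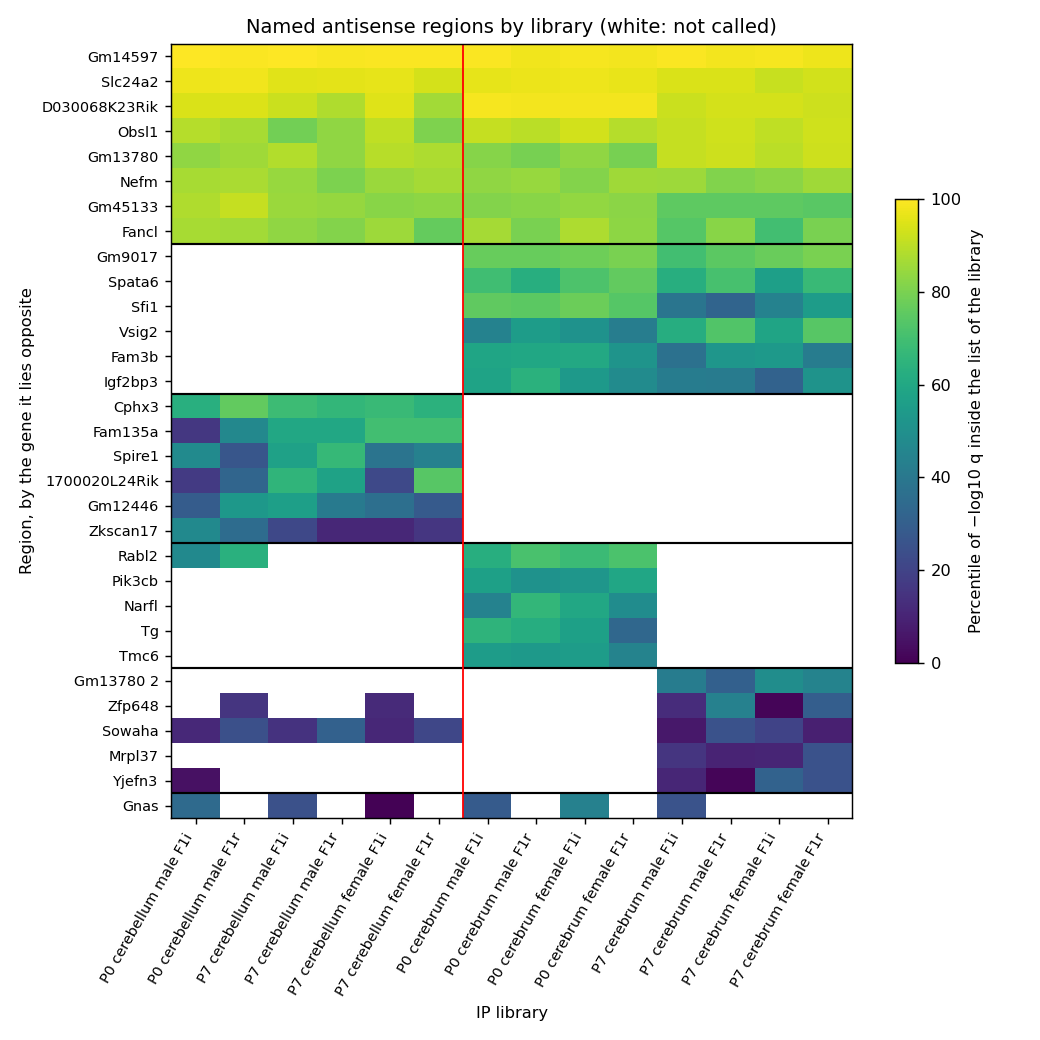
Percentile of −log10 q inside the list of each library (colour, 0 to 100, white where not called) for the 31 regions named by rank or by the cross, with a row per region by the gene it lies opposite and a column per library. From the top, the blocks hold regions called in all 14 libraries, in cerebrum alone, in cerebellum alone, in all P0 and no P7 cerebrum libraries, in all P7 and no P0 cerebrum libraries, and in F1i libraries alone.

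The share of antisense regions among all regions was compared between tissues first. It was 1.94% to 2.59% (median 2.31%) in the 6 cerebellum libraries and 1.86% to 3.41% (median 2.74%) in the 8 cerebrum libraries, which overlap. The mean difference, cerebrum minus cerebellum, was 0.458 points, with a two-sided p of 0.124 in the exact permutation test (adjusted p = 0.186). P0 libraries made up 2 of 6 in cerebellum and 4 of 8 in cerebrum, and with the P7 libraries alone the difference was 0.00349 points (exact p = 0.971). This direction did not hold when every list was cut to the same number of peaks, which gave -0.318 points (exact p = 0.00966).

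Among regions outside exons of their own strand, antisense regions made up a larger share in cerebellum. The share was 19.4% to 20.6% in cerebellum (20.2% ± 0.408, SD, n = 6) and 13.7% to 16.3% in cerebrum (14.9% ± 0.956, SD, n = 8), without overlap. The difference was -5.30 points, and p was 0.000333, the smallest that the exact permutation test (two-sided) can give here. This denominator was chosen after the data were seen, as was that of 2 other results, and the adjusted p over these 3 was 0.000999. Intronic regions, which are part of the denominator, made up 3.98% ± 0.771 of all regions in cerebellum and 9.52% ± 3.63 in cerebrum, and their part in the difference was not tested.

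Single regions were tested for presence by tissue across the whole table. Of 24722 regions that were present in at least 1 library and absent from another, 9.65% passed Fisher's exact test (two-sided, at 0.05 after the adjustment of Benjamini and Hochberg), 7.78% as more frequent in cerebrum and 1.87% as more frequent in cerebellum. Of the 1507 antisense regions tested, 64 (4.25%) passed, 47 of them more frequent in cerebrum (3.12%) and 17 in cerebellum (1.13%). With lists cut to the same number of peaks this balance turned over, with 24 regions more frequent in cerebrum and 28 in cerebellum. The antisense share was below that of all regions, and below the 6.62% of regions outside genes and the 7.25% of intronic regions. Every called antisense region was present in at least 5 cerebellum or at least 7 cerebrum libraries. A single library held 33.5% of antisense regions, 30.2% of those outside genes, 33.4% of intronic and 18.1% of all regions. The part of recurrence in these shares was not tested. The called regions included 34 that were present in every library of a tissue and absent from all of the other. The test is coarse, since its p-value cannot go below 0.000333, and the 64 calls fell to between 34 and 39 when any single cerebellum library was left out, and to 40 without both P7 cerebrum F1r libraries. With the P7 libraries alone Fisher's test made 0 calls after adjustment, as it must with 4 against 4, and 78 antisense regions had an unadjusted p under 0.05.

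All regions named for tissue had an adjusted p of 0.00660 and were called in 8 of 8 cerebrum and 0 of 6 cerebellum libraries, or in 6 of 6 and 0 of 8. Opposite Gm9017 (chr16:60605892-60606356, minus strand) the fold in cerebrum was 18.7 to 34.3 with a median of 26.3, and RefSeq places Epha6, an ephrin receptor gene, on the strand of the region. Opposite Igf2bp3, which encodes an RNA-binding protein (chr6:49097905-49098100, plus strand), it was 9.09 to 18.6, and the region lay 11251 nt past Malsu1, which RefSeq extends over it. Opposite Vsig2 (chr9:37541952-37542407, minus strand) it was 7.56 to 13.9 (median 10.4), and the region lay 2313 nt past the end of Nrgn, the gene of the forebrain synaptic protein neurogranin. Opposite Sfi1, a centrosome gene (chr11:3132590-3132811, plus strand), the fold was 11.7, 10.8, 10.4 and 10.8 at P0 and 6.01, 5.13, 6.06 and 8.21 at P7, so the ages did not overlap. This region lay 1696 nt past the pseudogene Pisd-ps1. Those opposite Spata6 and Fam3b, with median folds of 10.9 and 11.1, were the near-identical copies printed above, 137 and 115 nt past the processed pseudogenes Gm12960 and Gm9242. Near-identical antisense regions opposite Pnpla7 and Pkd1l1 were called in 8 cerebrum libraries as well, so these 4 are not independent. The region opposite Pnpla7 was also called in 1 cerebellum library.

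Of the regions called in cerebellum alone, the one opposite an intron of Fam135a (chr1:24072379-24072570, plus strand) had folds of 6.67 and 11.1 at P0 and 16.1, 16.4, 22.4 and 20.04 at P7, which do not overlap. It was 66.6 kb from the nearest upstream gene of its strand, and RefSeq places Gm30756 there. The region facing a coding exon of 1700020L24Rik (chr11:83440414-83440674, minus strand) lay 224 nt past the end of Mmp28, which encodes a matrix metalloproteinase, with folds of 6.67 to 22.7 (median 10.5). The region opposite Zkscan17, a zinc finger gene (chr11:59517879-59518127, plus strand), had folds of 6.16 to 11.7 (median 7.02). The other 3, opposite Cphx3, Spire1 and Gm12446, lay 72, 63 and 20 nt past processed pseudogenes, in soft-masked sequence, and each shared a long run with other regions. Their placement is uncertain, and those opposite Spire1 and Gm12446 shared a run of 72 nt with each other.

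Called antisense regions were compared with the genes upstream of them on their own strand. Of the 47 regions more frequent in cerebrum, 23 lay within 10 kb past a gene, and for 4 of these the upstream gene held a region called the same way. These were the regions opposite Sfi1, Bmp2k, Trim12c and Trim30a. Of the 17 more frequent in cerebellum, 11 lay within 10 kb past a gene and 1, opposite Gss and past Acss2, had an upstream gene called the same way. The opposite gene held a region called the same way for 5 of 47, namely those facing Hnrnpu, Tmem56, Plxnd1, Stox2 and Gm20388, and for 0 of 17. It held a region called the other way for 1 of 47, facing Tsr1, and for 1 of 17, facing Siah1a. These counts were not compared with those of other genes. These genes were picked out after their values were seen. Without the regions within 10 kb past a gene, 30 regions passed.

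Between ages, the antisense share in cerebrum was lower in every P7 than in any P0 library. It was 3.21%, 3.37%, 3.41% and 3.16% at P0 and 2.12%, 2.31%, 1.86% and 2.27% at P7. The difference of -1.15 points had p = 0.0286 (two-sided exact permutation test, 4 against 4), the smallest p this design can give, and an adjusted p of 0.0514 over 9 tests, so it did not pass after correction. Without both P7 cerebrum F1r libraries it was -1.30 points (exact p = 0.0667). Relative depth was 1.24 ± 0.268 (SD, n = 4) at P0 and 0.906 ± 0.121 at P7. With lists cut to the same number of peaks the difference was -0.241 points, and without the regions within 10 kb past a gene it was -0.311 points, so its size depended on both. The fall was not particular to antisense regions. In cerebrum, regions outside genes made up 6.75% to 7.34% of all regions at P0 and 4.74% to 5.76% at P7. Intronic regions made up 10.7% to 14.4% and 5.76% to 7.09%, again without overlap. In cerebellum the antisense share was 2.40% and 2.59% at P0 and 2.41%, 2.23%, 1.98% and 1.94% at P7, which overlap, and the exact permutation test cannot reach 0.05 at 2 against 4.

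The antisense regions of P0 cerebrum lay more often past the end of a gene. The share within 10 kb downstream of a gene was 59.7%, 61.9%, 57.3% and 58.5% at P0 and lay between 47.9% and 50% in the 4 P7 libraries, without overlap. The difference was -10.6 points (exact permutation test, two-sided p = 0.0286, adjusted p = 0.0429 over the 3 results that were added after seeing the data), and this comparison was made because the group values had been seen to differ. Without both P7 cerebrum F1r libraries it was -9.86 points (exact p = 0.0667). For regions outside genes the shares were 53.6% to 54.9% at P0 and 49.5% to 52.2% at P7. In cerebellum the antisense shares were 58.8% and 56.1% at P0 and 47.2% to 51.8% at P7. In numbers, the cerebrum libraries held 405 to 470 antisense regions within 10 kb past a gene at P0 and 150 to 202 at P7, and 282 to 350 and 156 to 217 elsewhere.

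Single regions exclusive to an age were counted, since 4 against 4 libraries allow no test that survives correction. Of the 30237 regions called in cerebrum, 4.79% were in all 4 P0 and 0 P7 libraries and 0.496% in all 4 P7 and 0 P0 libraries. Of the 1347 antisense regions called in cerebrum, 115 (8.54%) were exclusive to P0 and 7 (0.520%) to P7. The intronic regions had 10.0% and 0.122%, and those outside genes 6.97% and 0.708%. With lists cut to the same number of peaks, 27 and 14 antisense regions were exclusive to P0 and P7, or 4.24% and 2.198%, compared with 2.07% and 1.41% of all regions. Without both P7 cerebrum F1r libraries they were 156 and 11. Of the 115 P0 regions, 83 (72.2%) lay within 10 kb past a gene, beside 57.3% to 61.9% of all antisense regions of the P0 cerebrum libraries. A cerebellum library also held 41 of the 115 (35.7%), and this share was not worked out for other regions.

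The strongest P0 region was opposite an intron of Rabl2, a small GTPase gene (chr15:89591093-89591988, plus strand). Its fold was 18.4, 24.4, 20.7 and 25.8 in the P0 cerebrum libraries and 11.7 and 16.9 in the P0 cerebellum libraries, and it was called in none of the 8 P7 libraries of either tissue. The region opposite an intron of Tg, the thyroglobulin gene (chr15:66778268-66779123, minus strand), lay 2124 nt past Sla, with folds of 18.7, 17.6, 14.99 and 8.66. Opposite Tmc6 (chr11:117766443-117766594, plus strand) the folds were 14.4, 13.8, 13.8 and 11.2, 3079 nt past Tnrc6c, a gene of microRNA silencing that had a P0-exclusive region itself. Opposite Narfl, 1286 nt past Haghl, they were 10.9, 20.3, 16.7 and 12.3. Opposite Pik3cb, a kinase gene of the phosphoinositide pathway, they were 15.4, 12.7, 13.4 and 16.8, and this region shared a run of 75 nt with one opposite Gm12992.

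Of the 7 regions exclusive to P7, the strongest by mean percentile was another region opposite Gm13780 (chr2:92062094-92062256, plus strand), with folds of 11.7, 9.20, 13.1 and 12.3 in the P7 cerebrum libraries and no call elsewhere. The region facing a UTR of Sowaha (chr11:53479893-53480051, plus strand) was called in all 4 P7 cerebrum libraries with folds of 5.83 to 8.17, and in all 6 cerebellum libraries, both ages, with folds of 6.11 to 8.73. The regions opposite Zfp648, Mrpl37 and Yjefn3 had mean percentiles of 19.2, 15.3 and 14.7. Of these, the one opposite Mrpl37, a gene of the mitochondrial ribosome, was called in the 4 P7 cerebrum libraries alone.

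No difference in the share of antisense regions between the crosses was detected. Over the 7 pairs, F1r minus F1i was 0.0690 points on average (exact permutation test by sign flips, two-sided p = 0.5, adjusted p = 0.563), and -0.0239 points without both P7 cerebrum F1r libraries. Of the 24722 regions tested for tissue, 0.089% were called in the same direction in at least 5 of 7 pairs and in 0 pairs in the other. Among the 1507 antisense regions there was 1 (0.066%). It lay opposite an intron of Gnas, which encodes a G protein subunit (chr2:174326988-174327182, minus strand). Gnas is imprinted, and Nespas, an RNA antisense to it, is known to be made from the paternal allele. The region lay outside Nespas as annotated, 31649 nt upstream of the start of Nespas on the same strand. A paternal allele is present in both crosses, C57 in F1i and PWK in F1r, and the calls were not split by allele.

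The Gnas region was called in the F1i library and not in the F1r library of 6 pairs, and in neither library of the pair of P7 cerebrum labelled female. Its fold was 8.80 in the P0 male, 7.67 in the P7 male and 4.62 in the P7 female F1i cerebellum library, and 7.78 in the P0 male, 10.9 in the P0 female and 8.34 in the P7 male F1i cerebrum library. No F1r library of the 7 held it. It lay 3234 nt past the annotated end of Gm20721, and RefSeq places Gm30189 on its strand. Another 2 antisense regions opposite Gnas (chr2:174325994-174326098 and chr2:174326290-174326442, minus strand) were called in 2 libraries and 1 library, again F1i alone.

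Other imprinted genes were taken from a list of known names. Of 90 listed genes in the annotation, 6 (6.67%) held an antisense region, 23 regions in all, against 3.73% of all protein-coding genes. The sets are unlike, since 63 of the 90 listed genes carried an m6A region of their own strand. Of all 21951 protein-coding genes 10629 did, and this was not allowed for in the comparison. Opposite Ube3a, a ubiquitin ligase gene whose antisense transcript from the Snhg14 locus is known to come from the paternal allele, 8 regions had 12 calls, of which 11 were in F1i and 1 in F1r libraries. Both crosses hold a paternal allele, of C57 in F1i and of PWK in F1r, and calls were not split by allele. Why the calls fell mostly in F1i was not tested. Opposite Copg2 there were 2 calls, both in F1i. Opposite Inpp5f the calls were 9 in F1i and 8 in F1r libraries, opposite Jade1 20 and 19, and opposite Gab1 1 and 2. Of all 6519 calls of antisense regions, 3221 (49.4%) were in F1i libraries. Each of the 8 Ube3a regions was called in at most 2 libraries, 5 lay in Snhg14 as RefSeq annotates it, 3 shared a run of 31 nt or more with regions elsewhere, and no test was made on these counts.

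The other gene lists are described by their counts, without a test. Of the transcription factor genes below, 79 of 82 carried an m6A region of their own strand, and of the long neuronal genes 97 of 103. For all protein-coding genes this was 10629 of 21951, and for those of at least 100 kb 1934 of 2492. The sets compared are thus unlike. Of 82 developmental transcription factor genes, 7 (8.54%, beside 3.73% of all protein-coding genes) held 11 regions, 5 of them opposite Sox4, a factor of neural progenitors. The widest of these (chr13:28953331-28953921, plus strand) faced a UTR and was called in 13 libraries. The region opposite Pou3f4 (chrX:110814358-110814842, minus strand) was called in 1 cerebellum and 7 cerebrum libraries. Of 103 long neuronal genes, 18 (17.5%) held 32 regions, beside 7.18% of protein-coding genes of at least 100 kb. Among them, regions opposite Cntnap2, Cacna2d1, Wwox and Epha7, which encode a cell adhesion protein, a calcium channel subunit, an oxidoreductase and an ephrin receptor, were called in all 14 libraries. The region opposite Cntnap2 (chr6:46528938-46529575, minus strand) lay 98 nt past the pseudogene Rbpj-ps3. The one opposite Ctnna2, a catenin gene (chr6:77257817-77258157, plus strand), lay 196 nt past Lrrtm1, a synaptic adhesion gene nested in it, and was called in 3 cerebellum and 8 cerebrum libraries. Of 48 genes with a described antisense RNA, 4 (8.33%) held 14 regions, 11 of them opposite Ube3a and Gnas, and the tissue marker genes held 0.

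Antisense regions often came in chains. Neighbours on a strand at most 10 kb apart formed 308 chains that took in 909 of the 1587 regions. The longest lay on the plus strand of chromosome 7, opposite the Trim12 and Trim30 genes, tripartite motif genes of innate immunity. A chain of 36 regions faced Trim12c and Trim30b (chr7:104340579-104369160), one of 25 faced Trim30a (chr7:104409306-104428077) and one of 12 faced Trim30c (chr7:104384208-104398141). The whole locus held 78 antisense regions, of which 71 were called in 0 cerebellum libraries. There were 0 to 4 per cerebellum library and 14 to 36 per cerebrum library.

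The Trim regions differed in kind from the rest. Of the 78, 51 were under 90 nt wide, compared with 21.1% of all antisense regions, 43 had their strongest summit in soft-masked sequence, and 7 (8.97%) held GGAC within 25 nt of it, compared with 43.9% of all antisense regions. The next chains were 10 regions opposite Cilp2 and Yjefn3 and 9 opposite Sfi1, and 3 chains had 8 regions each, opposite Pcdha1 and Gm42416, opposite Jade1 and opposite Mreg. The 8 opposite Mreg, a melanosome transport gene (chr1:72181597-72208216, plus strand), were each called in a single library, all of cerebrum. By contrast the 9 opposite Sfi1 (chr11:3132590-3146414, plus strand) had a median of 8 libraries, with 1 or more called in all 14.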

How the data were processed

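m6A-seq peak lists of 14 IP libraries were used, and the 14 inputs were not analysed here. According to the methods and the submitters' processing notes, reads were trimmed, processed with fastp (0.21.0), aligned with HISAT2 (2.1.0) to mm10 with sites that differ between C57 and PWK masked, and divided by strand. The authors called peaks with MACS2 (2.1.2), library by library, with an extension of 80 nt, and which library was the control of a call is not given in the sources used here. Per the labels the RNA was polyadenylated. The methods also mention ribo-depleted RNA, which would hold more unprocessed transcripts, and do not assign it to samples. Each deposited peak carries a fold enrichment at the summit (a ratio), a −log10 p-value and a −log10 q-value, and the authors' lists end at a −log10 q of 1.30 to 1.41. These values belong to their list, so peaks were ranked inside lists and libraries were compared by the presence of regions. The lists hold no counts. Pileups came out whole (within 0.05) for 94.1% to 100% of a library's peaks, which gave relative but not absolute depth, so no counting interval was attached to a peak. The 95% Wilson interval covers counting error only.

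Regions were placed with GENCODE M21, and sequence was read from the RefSeq GRCm38.p6 genome with pysam (0.24.0). GGAC was sought on the given strand with its A within 25 nt of a summit, and overlaps with another motif were not removed. Tests were exact permutations over libraries, exact sign flips over libraries or pairs, and Fisher's exact test per region with Benjamini-Hochberg adjustment over 24722 regions (scipy 1.17.1, statsmodels 0.14.6), and the scripts were tested on simulated data. The 9 planned tests were adjusted as a family, and the 3 added results as another. The labels do not say which libraries are separate animals, so p-values measure the spread between libraries, which may be partly technical. The members, gene lists and tests were chosen with earlier results of these data known. Named regions were the 8 strongest by mean percentile among those in all 14 libraries, 6 per tissue among those past the test, 5 per age, those directed by the cross, the 6 longest chains with ties, those opposite listed imprinted genes, and up to 5 of each other list. Alternatives were the lists cut to 16687 peaks, a −log10 q of at least 5, depth scaling, 50% cover, placement by summit, GENCODE basic transcripts, leaving out regions overlapping the other strand, past a gene, of the Trim locus or under 90 nt, other motifs and distances, and leaving out libraries. The result for 1 of the marker genes and the sequence of 1 of the named regions are not reported here.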

Additional observations from a re-analysis of the deposited data

Results flagged for a closer look

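The change from P0 to P7 in the antisense share of regions differed between tissues. The change in cerebrum minus that in cerebellum was -0.790 points (exact permutation of the age labels within each tissue, two-sided p = 0.0381). Such a difference was computed for 4 measures, and over these the adjusted p of the exact permutation test was 0.130, which does not pass. The other 3 were the number of antisense regions (-303.2, exact p = 0.0648), their share of regions outside exons (1.49 points, exact p = 0.662) and GGAC at summits (-1.06 points, exact p = 0.868). The cerebellum P0 group has 2 libraries, both labelled male, and relative depth fell from 1.24 to 0.906 in cerebrum and from 0.953 to 0.874 in cerebellum. The part of depth in the difference was not tested.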

How the results depend on the processing

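The excess of GGAC at antisense summits over shifted windows (28.7 to 33.5 points), over the gene's strand (35.1 to 45.3) and over intronic summits (6.14 to 9.35), and the lower strength of antisense peaks (-24.5 to -10.7 percentile points), kept their direction and p under 0.05 in all alternatives run. So did the lower antisense share of regions outside exons in cerebrum (-6.23 to -3.87 points). The labels give no replicate numbers. With ages paired by cross and labelled sex as a replicate block, the age difference in share of -1.15 points had an exact p of 0.125, which is the smallest 4 pairs allow, and without both P7 cerebrum F1r libraries it was -1.30 points (exact p = 0.0667). Without any single library it was -1.20 to -1.05 points.

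The tissue difference in share was reversed with lists of equal length (-0.318 points, exact p = 0.00966). As a number of regions it was 211.7 (exact p = 0.0316), and leaving out single libraries gave 0.358 to 0.580, the last without the P7 cerebrum female F1i library (exact p = 0.0478). The cross difference was -0.0239 points without both P7 cerebrum F1r libraries. The GGAC difference from peaks outside genes was -1.42 points at a −log10 q of at least 5 (exact p = 0.0289), -1.34 with any DRACH motif and 0.0419 without the Trim locus.

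The difference from regions outside genes in the share past a gene was 3.63 points with GENCODE basic transcripts (exact p = 0.00793), -4.93 at 5 kb, 1.99 at 50 kb, 0.0574 without both P7 cerebrum F1r libraries, 0.380 without the Trim locus, and -0.867 to 0.223 without single libraries, with 4 P7 cerebellum libraries turning its sign. The age difference in that share among antisense regions was -9.86 points without both P7 cerebrum F1r libraries. The antisense share of regions outside exons rose from P0 to P7 in cerebrum by 1.28 points (exact p = 0.0857), by 1.61 with lists of equal length and by 3.52 without regions past a gene (exact p = 0.0286 each).

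Of counts, regions differing between tissues fell from 64 to 30 with 50% cover, 30 without regions past a gene, 40 without both P7 cerebrum F1r libraries and 0 with P7 libraries alone, and were 34 to 78 without single libraries, with all 6 below 40 being cerebellum libraries. Regions exclusive to an age fell from 122 to 41 with lists of equal length and to 38 without regions past a gene, and the single region directed by the cross lay past a gene, leaving 0 without those. Counting any overlap as mirrored gave 8.70%. Depth limits the weak end of the lists: a region not called in a library may be methylated there.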
